A study of Mus musculus with 5 samples.

Results

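Ago HITS-CLIP of mouse fetal liver was compared between the embryonic stages e12.5 and e15.5, counted in days with the day of the vaginal plug as e0.5, which are 2 of the 5 libraries of a series on liver development, with 1 library per stage. Whole livers of C57BL/6 embryos were homogenised, irradiated with ultraviolet light to crosslink RNA to protein, and precipitated with antibodies against Ago2 only, from Wako and Abnova, at both stages. No treatment or genotype set the stages apart, and how many embryos were pooled is not given in the sources used here. The members compared were the target genes and regions, the sites and the miRNAs listed in the table of interactions deposited for each stage. The e12.5 table held 231477 clusters of Ago reads with 1250128 sites, and the e15.5 table held 86624 clusters with 393130 sites. With 1 library per stage no difference has a replicate check, and no p-value is given. The measure for a gene was the highest read number of its clusters in the 3′UTR or in the coding sequence (CDS), in rpm, the reads per 1000000 summed cluster reads of its table. The e12.5 table names this number for the miRNA target and the e15.5 table for the peak, and both were taken as the same measure.

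Ago2 is the protein of the silencing complex that holds a miRNA, and the miRNA guides it to mRNAs through pairing of its seed near the 5′ end. Sites in 3′UTRs are the best known, and CDS sites are bound as well. Fetal liver in mid gestation is the main site of red cell formation, so that erythroblasts, myeloid cells and blood progenitors share the organ with hepatoblasts, the precursors of hepatocytes and bile duct cells. A cluster shows that Ago2 lay on an RNA and depends both on how much of that RNA was there and on how much Ago2 it carried. These cannot be told apart here, nor can fewer cells of a type and less RNA per cell.

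The miRNAs that carried the comparison are shown with their RefSeq mature sequences, which lie on GRCm38.p6, because their seeds define the sites counted. They comprise some of the most abundant miRNAs, miR-192-5p, miR-194-5p and let-7 miRNAs with larger shares at e15.5, and miRNAs with smaller shares there. Capitals mark the seed, bases 2 to 8.
miR-142a-3p: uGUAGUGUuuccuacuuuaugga
miR-144-3p: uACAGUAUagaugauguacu
miR-451a: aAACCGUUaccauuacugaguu
miR-136-5p: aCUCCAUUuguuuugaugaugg
miR-127-3p: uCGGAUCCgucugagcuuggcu
miR-192-5p: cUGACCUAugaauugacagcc
miR-194-5p: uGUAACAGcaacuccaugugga
let-7b-5p: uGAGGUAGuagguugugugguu
let-7c-5p: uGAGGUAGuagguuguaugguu
miR-652-3p: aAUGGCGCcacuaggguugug
miR-673-5p: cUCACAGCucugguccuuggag
miR-540-3p: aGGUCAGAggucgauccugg
let-7b-5p and let-7c-5p share the seed GAGGUAG. The miRNAs miR-144-3p and miR-451a lie next to each other, at chr11:78073047-78073066 and chr11:78073186-78073207 on the plus strand. miR-136-5p, miR-127-3p, miR-673-5p and miR-540-3p lie in 1 cluster of chromosome 12.

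Each table consisted of 2 stacked lists with their own cluster numbers, which neither the labels nor the files explain. The study's methods state that Ago2 HITS-CLIP was done in biological duplicate, but nothing ties the lists to those duplicates, so they were joined and not treated as replicates. The lists held 65926 and 165551 clusters at e12.5 and 13158 and 73466 at e15.5, with median read numbers of 66, 20, 94 and 25 in the same order. The first list of e15.5 stood apart. Across the 1329 genes with 3′UTR clusters in all 4 lists, Spearman's rho of the rpm values was 0.74 between the second lists of the stages and 0.60 between the lists of e12.5, but 0.28 to 0.29 between the first list of e15.5 and each of the others. Results are therefore given with the lists joined and from the second lists alone. The summed cluster reads were 44867326 at e12.5 and 16519549 at e15.5, so the lowest read number listed, 5, stood for 0.11 and 0.30 rpm. Clusters over miRNA genes held 50.6% and 47.0% of the reads. The liver label fitted its markers: Alb, Afp and the adult globins Hba-a1 and Hbb-bs were listed in both lists of both stages.

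A smaller share of the Ago clusters lay in introns at e15.5, and a larger share in the CDS and the 3′UTR. Without clusters over miRNA genes, and with the lists added up, the share in the CDS went from 28.9% at e12.5 to 35.2% at e15.5, and that in the 3′UTR from 19.6% to 22.5%. Introns held 26.3% at e12.5 and 18.7% at e15.5. In the first lists the intron share was 30.5% and 18.8%, and in the second lists 24.6% and 18.6%, so that the direction was shared. Of the cluster reads, introns held 32.0% and 28.9%, the CDS 34.0% and 41.1%, and the 3′UTR 25.4% and 29.3%, where a cluster can count in several regions. Clusters placed in the exon class, which is listed apart from the CDS and the UTRs, went from 16.7% to 19.3% of the clusters but from 44.7% to 41.5% of the reads. No common minimum was set for these shares. The sites in 3′UTRs were more conserved at e15.5. On the deposited score, which runs from 0 to 1, the median was 0.32 over the e12.5 sites above the scaled minimum of the e15.5 table and 0.53 over the e15.5 sites, and the share of sites scoring at least 0.9 was 33.6% and 38.3%. In the CDS the medians were 0.98 at both stages. Sites pairing with 8 bases were 7.83% of the e12.5 and 8.39% of the e15.5 sites in 3′UTRs.

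The clusters themselves often lay at different positions. In the 3′UTR, with both tables held to the same scaled minimum, 22.5% of the 33320 e12.5 clusters overlapped an e15.5 cluster on the same strand, and 43.0% of the 18219 e15.5 clusters overlapped an e12.5 cluster. In the CDS these shares were 25.4% of 48746 and 45.7% of 28293. Lists of the same stage overlapped in part as well. Of the 3′UTR clusters of the e15.5 first list, 41.8% overlapped its second list, and of those of the e12.5 first list, 49.1% did. Of the larger second lists, 6.56% at e15.5 and 16.0% at e12.5 overlapped the first list. The first lists held 2670 and 11467 such clusters against 16682 and 33659 in the second, which limits these shares. No common minimum was set within a stage, so they cannot be ranked against the overlap between the stages. At the level of genes the overlap was larger. With the same minimum, 5136 genes had 3′UTR clusters at both stages, which is 65.8% of the 7804 at e12.5 and 86.5% of the 5937 at e15.5. At e12.5 alone 2668 genes were listed (31.0% of the 8605 listed at either stage) and at e15.5 alone 801 (9.31%). For the CDS, 7292 genes were shared, 2588 (24.0% of 10784) were listed at e12.5 alone and 904 (8.38%) at e15.5 alone. The deeper sequencing of e12.5 moved with these counts. So did the number of miRNAs with listed sites, 563 and 731 in the e12.5 lists and 438 and 543 in those of e15.5. A cluster is listed only with a site of a listed miRNA, which the common minimum does not make equal. The sites compared by conservation came from the same unequal sets of miRNAs. The part of depth and of the miRNA sets was not tested.

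A gene was compared in a region when its clusters reached 2 rpm at 1 of the stages, and it was called higher at a stage when the ratio was 4-fold or more, with an unlisted gene set at the listing minimum. Of 5400 genes compared in the 3′UTR, 1256 (23.3%) were higher at e15.5 and 821 (15.2%) at e12.5. Of 7066 compared in the CDS, 1623 (23.0%) were higher at e15.5 and 722 (10.2%) at e12.5. The median log2 ratio of e15.5 over e12.5 was 0.75 in the 3′UTR and 0.82 in the CDS, so single genes and gene groups are best read against this shift. Of the 3′UTR calls 60.5% were higher at e15.5, and 38.1% when ratios were centred on the genes listed at both stages. In the CDS the split was 69.2% and 42.9%. With the second lists alone, centred on their median, 545 of 4814 genes (11.3%) were higher at e15.5 in the 3′UTR and 469 (9.74%) at e12.5, and in the CDS 583 of 6600 (8.83%) and 520 (7.88%). A stricter view asked that both lists of a stage lie above both lists of the other. This held for 476 3′UTR genes (8.81%) with e15.5 above and 589 (10.9%) with e12.5 above, and for 823 (11.6%) and 656 (9.28%) CDS genes.

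**Figure D1:**
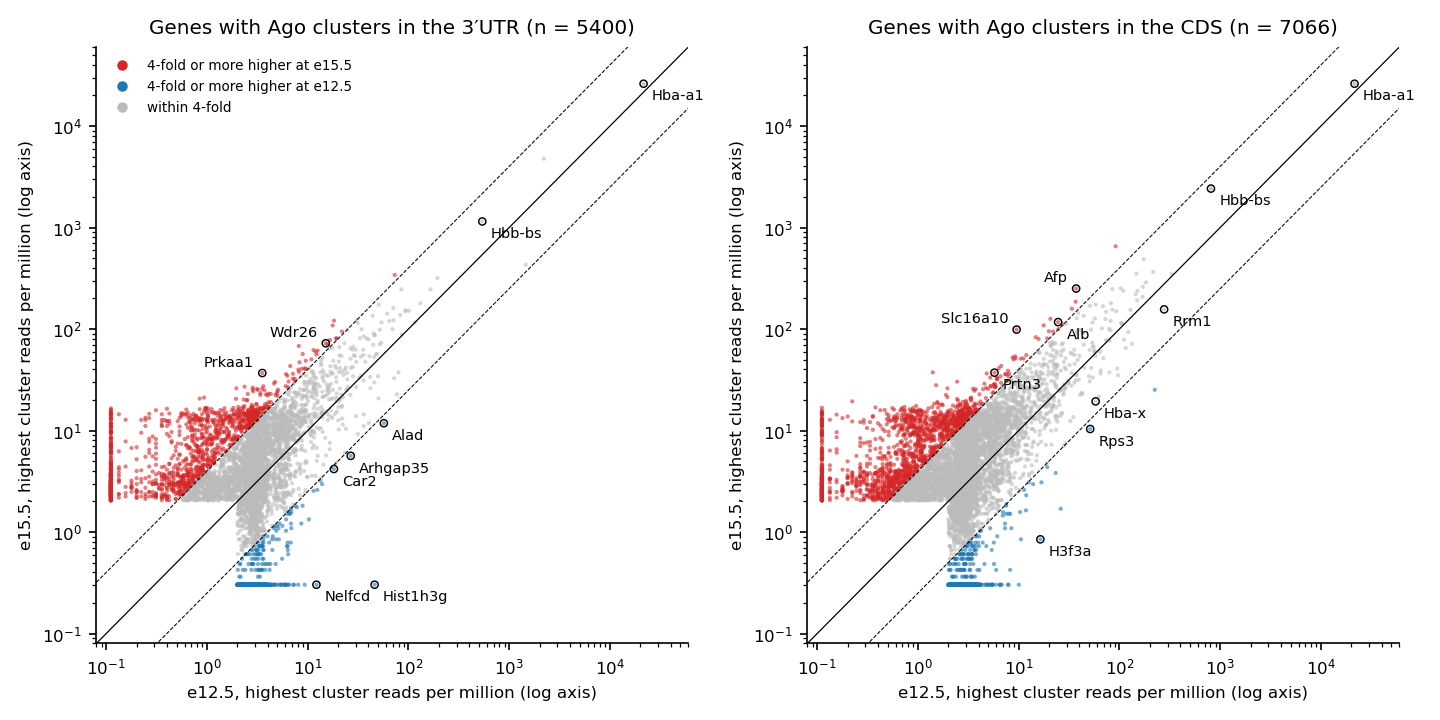
Highest cluster reads (rpm) of each gene at e12.5 (x axis) and e15.5 (y axis), both on log axes, in the 3′UTR (5400 genes) and the CDS (7066 genes), with genes not listed at a stage drawn at its listing minimum. The solid line marks equality and the dashed lines 4-fold; the cloud sits above equality, Afp, Alb and Slc16a10 lie above the upper dashed line in the CDS, and H3f3a, Alad, Nelfcd and Hist1h3g lie below the lower one in the region shown.

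The genes of secreted plasma proteins, the main product of hepatoblasts and hepatocytes, stood higher at e15.5. Of 38 members compared in the CDS, 17 were called higher at e15.5 (23.0% of all CDS genes were) and 0 at e12.5 (10.2%), and 34 lay above the median of all CDS genes. Their median log2 ratio was 1.92, which is 1.10 above the median of all, and 1.01 above it in the second lists. With the centred second lists 4 of 38 were called higher at e15.5, against 8.83% of all CDS genes, and 0 at e12.5 (7.88%), while 33 lay above the median. In 24 of the 38 (all CDS genes: 11.6%) both e15.5 lists lay above both e12.5 lists. In the 3′UTR 10 of 21 were higher at e15.5 (all genes: 23.3%) and 2 at e12.5 (15.2%), with a median 1.24 above that of all genes and 1.19 in the second lists, where 8 of 24 were called higher at e15.5 after centring (11.3%) and 1 at e12.5 (9.74%). The group also took a larger part of the distinct sites, with 1.43% of the CDS sites before and 2.43% after, and 0.245% and 0.484% of the 3′UTR sites.

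Afp, the fetal counterpart of albumin, had the most CDS reads of the list at e15.5. Its CDS clusters reached 113 and 49.6 rpm in the first and second list of e12.5 and 375 and 342 rpm in those of e15.5, so the stages did not overlap, and the joined values of 37.2 and 250.5 rpm gave a log2 ratio of 2.75. Its distinct CDS sites numbered 263 and 180. Alb, the main plasma protein of the adult, had 74.6 and 32.6 rpm at e12.5 and 197 and 160 rpm at e15.5 (log2 ratio 2.25). Ahsg, the carrier protein fetuin-A, had 48.5 and 54.8 rpm at e12.5 and 323 and 254 rpm at e15.5 (log2 ratio 2.34). All 3 genes were higher in every e15.5 list than in any e12.5 list. Relative to the median of all CDS genes, the log2 ratios of Afp, Alb and Ahsg were 1.93, 1.43 and 1.52, which is under 4-fold. Apob, the structural protein of lipoprotein particles, reached 4.57 and 28.9 rpm with the lists joined, and Agt, the precursor of angiotensin, 1.52 and 28 rpm. Ttr, which carries thyroid hormone, was below the 4-fold threshold with 27.8 and 62.5 rpm, and Apoa2, an apolipoprotein of HDL, had 34.0 and 57 rpm. The 3′UTRs did not follow the CDS in each gene: for Afp the 3′UTR values were 51.9 rpm at e12.5 and 70.7 rpm at e15.5, while for Trf, the iron carrier transferrin, they were 8.16 and 68.1 rpm. Trf shares its entries with another gene name in the tables.

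The sites with the highest reads in the clusters of Afp and Alb at e15.5 are shown on the transcript strand, with the bases that pair with the seed in capitals, to give the text Ago2 lay on.
Afp, CDS, site of miR-92a-3p: agcgatgtgttggcTGCAATg
Alb, CDS, site of miR-487b-3p: ctccagaaatgctcaTACGATg
The Afp site lies at chr5:90492714-90492734 and the Alb site at chr5:90462725-90462746, both on the plus strand of GRCm38/mm10, in coding sequence per the deposited region. Several seeds match the same cluster, so a label does not give the miRNA that was bound, here or for the sites below. In Afp 8 sites and in Alb 4 shared the highest read number, and the site whose miRNA had the largest share is shown for each. Both are 6mer matches, with conservation scores of 0.149 for Afp and 0.555 for Alb, so neither lay in a stretch as conserved as the median CDS site.

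Other hepatocyte groups were sparser. Of the liver transcription factors, 4 of 11 were higher at e15.5 in the 3′UTR (all genes: 23.3%) and 0 at e12.5 (15.2%), with a median 0.89 above that of all genes and 0.44 in the second lists. In the CDS 2 of 5 were higher at e15.5 (all genes: 23.0%) and 0 at e12.5 (10.2%), but the median lay 0.66 below that of all genes, 0.57 above it in the second lists and 0.92 below it with sums over clusters. Their share of the distinct CDS sites was smaller at e15.5, 0.0482% after 0.0734%, so the regions did not give the same picture. Hhex, a homeobox factor needed for liver budding, was unlisted in the 3′UTR at e12.5 and had 36.3 and 3.39 rpm in the e15.5 lists, and Foxa3, a forkhead factor of hepatocytes, was unlisted at e12.5 and had 6.53 rpm in the second list of e15.5 alone. Hnf4a, the nuclear receptor at the centre of the hepatocyte programme, had 1.56 and 12.9 rpm in the CDS with the lists joined, but 2.33 and 5.05 rpm in the second lists. The enzymes of hepatocyte metabolism were mostly below the limit, with 9 of the 23 members listed in the CDS compared, of which 2 were higher at e15.5 (all genes: 23.0%) and 1 at e12.5 (10.2%), with a median 0.65 below that of all genes and 0.20 below it in the second lists. Of the 3′UTRs compared, 3 of 5 were higher at e15.5 (all genes: 23.3%) and 1 at e12.5 (15.2%), with a median 1.33 above that of all genes and 0.72 in the second lists. The share of the distinct sites was 0.0282% after 0.0323% in the 3′UTR, and 0.183% after 0.0882% in the CDS. Cps1, the entry enzyme of the urea cycle, had 3.30 and 11.5 rpm in the CDS with the lists joined. Of bile duct markers, 3 members were compared in each region, and 0 were higher at e15.5 (all genes: 23.3% in the 3′UTR and 23.0% in the CDS). At e12.5 1 of 3 was higher in the CDS (all genes: 10.2%), Spp1, the secreted protein osteopontin, with 2.61 rpm, which was unlisted at e15.5, and 0 in the 3′UTR (15.2%).

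Red cell genes gave the highest read numbers at both stages, with a smaller and uneven shift. Of 36 erythroid members compared in the CDS, 4 were higher at e15.5, a smaller share than the 23.0% of all CDS genes, and 0 at e12.5 (10.2%). Their median lay 0.30 above that of all genes with the lists joined and 0.05 below it in the second lists, yet in 18 of the 36 (all CDS genes: 11.6%) both e15.5 lists lay above both e12.5 lists. In the 3′UTR 2 of 34 were higher at e15.5 (all genes: 23.3%) and 3 at e12.5 (15.2%), with a median 0.14 above that of all genes and 0.36 below it in the second lists. Slc4a1, the anion exchanger band 3, had 74.8 and 35.4 rpm at e12.5 and 83.1 and 136 rpm at e15.5, and Alas2, the first enzyme of erythroid haem synthesis, 172 and 70.9 rpm and then 213.5 and 174 rpm. Bpgm, which makes the regulator of oxygen release, was higher in the 3′UTR, with 44.0 and 24.9 rpm at e12.5 and 103 and 106 rpm at e15.5.

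Car2 and Alad, of the same list, ran the other way in the 3′UTR. Car2, carbonic anhydrase II, had 55.2 and 7.22 rpm in the 3′UTR at e12.5 and was unlisted in the first and at 5.71 rpm in the second list of e15.5, whereas its CDS had 109 and 238 rpm with the lists joined. Alad, the second enzyme of haem synthesis, had 57.1 and 85.1 rpm in the 3′UTR at e12.5 and was unlisted and at 16.1 rpm at e15.5, and its CDS had 19 and 17.2 rpm. Only Car2 thus had opposite directions in its regions, since the CDS of Alad was slightly lower at e15.5 as well.

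Globin clusters separated embryonic from adult genes only in part. The adult alpha globins Hba-a1 and Hba-a2, near-identical copies whose reads cannot be assigned, had 19190 and 32170 rpm at e12.5 and 29270 and 35650 rpm at e15.5, and these ranges overlapped. The adult beta globins Hbb-bs and Hbb-bt, also near-identical, had 1698 and 1208 rpm in the CDS at e12.5 and 5255 and 3304 rpm at e15.5, without overlap and 2.99-fold apart when joined. Hba-x, the zeta globin of primitive red cells, had 173 and 86.6 rpm in the CDS at e12.5 and 72.2 and 16.9 rpm at e15.5. Both e12.5 lists thus lay above both e15.5 lists. The joined log2 ratio of -1.58 did not reach 4-fold. Relative to the median of all CDS genes it was -2.40, and in the second lists -2.36, both past 4-fold. Hbb-y, the epsilon-type globin of the same cells, had 21.2 and 22.1 rpm in its CDS with the lists joined and 20.6 and 54.9 rpm in its 3′UTR. The lower value of Hba-x was not shared by Hbb-y, nor by Hbb-bh1 with 5.86 and 6.78 rpm in its CDS with the lists joined. Of 4 embryonic globins compared in the CDS, 1 was higher at e15.5 (all genes: 23.0%) and 0 at e12.5 (10.2%).
Hba-x, CDS, e12.5, site of miR-324-5p: tcatgaccgccgtagGGGATGCg
This site, shown because its gene was lower at e15.5, had the highest reads of Hba-x. It lies at chr11:32277661-32277683 on the plus strand and matches 7 bases.

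Myeloid and macrophage genes were higher at e15.5 as a group. Of 21 compared in the CDS, 9 were higher at e15.5 (all genes: 23.0%) and 2 at e12.5 (10.2%), with a median 1.14 above that of all genes and 0.91 in the second lists. Both e15.5 lists lay above both e12.5 lists in 5 of the 21 (all genes: 11.6%), and the reverse held for 3 (9.28%). In the 3′UTR the numbers were 5 (all genes: 23.3%) and 1 (15.2%) of 11, with a median 0.79 above and 1.19 in the second lists. Their part of the distinct CDS sites went from 0.124% at e12.5 to 0.244% at e15.5. S100a9, a calcium-binding protein of neutrophils and monocytes, had the most reads, with 68.6 and 168 rpm in the CDS. Prtn3, the granule protease proteinase 3, had 0.54 and 8.58 rpm at e12.5 and 107 and 50.8 rpm at e15.5 in the CDS. Lyz2, lysozyme of myeloid cells, had 5.0 and 1.43 rpm at e12.5 and 39.3 and 12.9 rpm at e15.5, and Mpo, myeloperoxidase of granulocyte precursors, 6.96 and 2.50 rpm and then 35.0 and 6.70 rpm. Prtn3 and Lyz2 were higher in both e15.5 lists than in either e12.5 list, and Mpo overlapped. Cd5l, a product of tissue macrophages, had 0.89 and 3.69 rpm with the lists joined.
Prtn3, CDS, e15.5, site of miR-449a-5p: tgctgacagccgccCACTGCCt
The site, 1 of 6 with the highest reads, lies at chr10:79880563-79880584 on the plus strand. At e15.5 miR-449a-5p held 0.0096% of the miRNA numbers.

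Endothelial genes were few and low. Of 12 compared in the CDS, 5 were higher at e15.5 (all genes: 23.0%) and 0 at e12.5 (10.2%), with a median 0.88 above that of all genes and 1.28 in the second lists, while in the 3′UTR 2 of 9 were higher at each stage (all genes: 23.3% and 15.2%), with a median 0.66 below that of all genes but 0.71 above it in the second lists. Flt4, the VEGF receptor of lymphatic and sinusoidal endothelium, had 0.34 and 0.70 rpm in the CDS at e12.5 and 59.4 and 3.97 rpm at e15.5, so most of its height came from the first e15.5 list. Blood progenitor genes lay below the general shift in the 3′UTR. Of 9 compared, 1 was higher at e15.5 (all genes: 23.3%) and 2 at e12.5 (15.2%), with a median 1.25 below that of all genes and 1.23 below it in the second lists. In the CDS 3 were compared, of which 0 were higher at e12.5 (all genes: 10.2%) and 1 at e15.5 (23.0%), Kit, the stem cell factor receptor, with 2.01 and 15.1 rpm, of which the e15.5 value came from the first list alone, and the median lay 1.01 above that of all genes but 0.53 below it in the second lists. Myb, a factor of immature blood cells, had 22.2 and 4.96 rpm at e12.5 and was unlisted and at 4.88 rpm at e15.5. Meis1 and Gata2, factors of stem and progenitor cells, were unlisted at e15.5 and at 2.47 and 2.25 rpm at e12.5. Lmo2, a partner of Gata2, was the member higher at e15.5, with 8.91 and 4.76 rpm at e12.5 and 93.9 and 9.26 rpm at e15.5. The log2 ratio of Lmo2 in the second lists, 0.96, lay below the median of all genes there, 1.24, so its call rested on the first e15.5 list. Of 9 lymphoid markers 0 were listed in a 3′UTR and 1 was compared in the CDS, Rag1, the recombinase of antigen receptor genes, which was unlisted at e12.5 and had 54.4 rpm in the first e15.5 list alone, in entries shared with another gene name. Of the megakaryocyte markers, 1 of 5 in the 3′UTR and 2 of 6 in the CDS were higher at each stage (all genes: 23.3% and 15.2% in the 3′UTR, 23.0% and 10.2% in the CDS). The 3′UTR median lay 0.45 above that of all genes, but 0.04 below it in the second lists, and the CDS median lay 1.39 below that of all genes and 1.28 below it in the second lists. Pf4, a platelet chemokine, had 79.4 rpm in the CDS in the first e15.5 list, while its second lists had 2.93 and 2.73 rpm.

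Beyond these lists stood the genes with the largest ratios and at least 500 reads. Ratios of single genes below are not centred on the median of all genes unless stated. In the CDS, Slc16a10, a transporter of aromatic amino acids, had 14.9 and 14.2 rpm at e12.5 and 87.1 and 135 rpm at e15.5, a 10.4-fold difference with the lists joined. Its distinct CDS sites numbered 91 and 43. Rnf19a, a ubiquitin ligase, had 38.2 and 30.8 rpm at e12.5 and 138 and 172 rpm at e15.5. Slc2a1, the glucose transporter GLUT1 of red cells and their precursors, had 18.0 and 9.48 rpm and then 47.6 and 56.1 rpm. The stages did not overlap in any of these 3 genes (all CDS genes with e15.5 above: 11.6%). Genes were named here only if first and second lists shared the direction, so this is no separate support. Relative to the median of all CDS genes their log2 ratios were 2.55, 1.79 and 1.87, so only Slc16a10 passed 4-fold. Ncapg2, a condensin subunit, Anxa1, a lipid-binding annexin, and Bcar1, an adaptor of integrin signalling, were 6.37-fold, 6.04-fold and 7.58-fold higher at e15.5 with the lists joined, and their second lists gave log2 ratios of 2.54, 2.47 and 2.80. Strn3, a subunit of a phosphatase complex, had a log2 ratio of 3.63 that rested on the first e15.5 list at 113 rpm, since its second lists had 3.66 and 5.87 rpm.

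In the 3′UTR, Wdr26, a subunit of a ubiquitin ligase complex of maturing red cells, had 21.7 and 22.6 rpm at e12.5 and 109 and 98.9 rpm at e15.5. Plagl2, a zinc finger factor, had 30.9 and 17.1 rpm and then 52.4 and 84.8 rpm. Rnf11, a ubiquitin ligase, had 13.7 and 17.9 rpm and then 47.2 and 81.7 rpm. In these 3 genes every e15.5 list lay above every e12.5 list, and the joined ratios were 4.78-fold, 5.43-fold and 4.99-fold. Cyb5b, a cytochrome of the outer mitochondrial membrane, Necap1, a factor of clathrin-coated vesicles, Baz2b, a bromodomain protein, Smc3, a cohesin subunit, and BC100530 had second-list log2 ratios between 2.11 and 2.43. Prkaa1, the catalytic alpha1 subunit of AMP-activated kinase, and Psap, the saposin precursor, had joined log2 ratios of 3.38 and 2.67 but 1.06 and 0.86 in the second lists, below the median of all genes there, so their calls rested on the first e15.5 list.
Slc16a10, CDS, e15.5, site of miR-101b-3p: tcgatacccatgACTGTAg
Wdr26, 3′UTR, e15.5, site of miR-136-5p: cacagagctcttggtATGGAGt
Plagl2, 3′UTR, e15.5, site of miR-30a-5p: gttaactggagcccTGTTTACA
The Wdr26 and Plagl2 sites are shown for their conservation score of 1 and for the miRNAs they match, miR-136-5p being among the most abundant at both stages and the Plagl2 match being an 8mer. The site of Slc16a10 lies at chr10:40040614-40040632, that of Wdr26 at chr1:181173618-181173639 and that of Plagl2 at chr2:153230758-153230779, all on the minus strand of GRCm38/mm10.

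**Figure D2:**
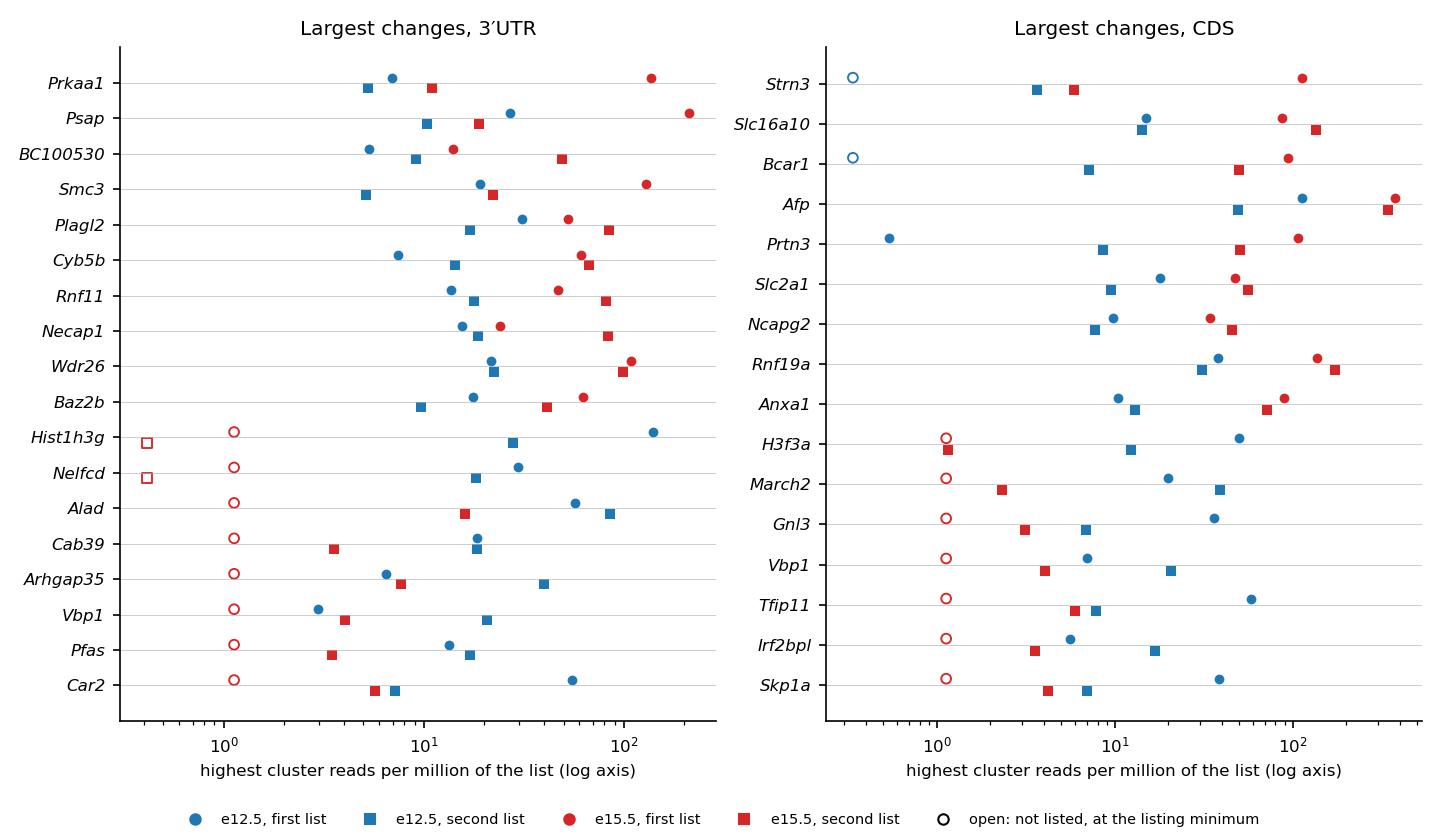
Highest cluster reads (rpm, log axis) in each of the 4 lists for the genes with the largest changes in the 3′UTR (left) and the CDS (right), blue for e12.5 and red for e15.5, circles for first and squares for second lists, open symbols for genes not listed. Wdr26 and Slc16a10 are separated by stage in both lists, whereas Strn3 and Psap are separated in the first lists and lie close together in the second.

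Among the genes with at least 500 reads that were higher at e12.5, H3f3a had the largest ratio of those named here and still listed at e15.5. H3f3a, which encodes the replacement histone H3.3, had 49.7 and 12.4 rpm in the CDS at e12.5 and was unlisted and at 1.16 rpm at e15.5, with a joined log2 ratio of -4.27. March2, a membrane-bound ubiquitin ligase, had 19.8 and 39.0 rpm and then was unlisted and at 2.32 rpm. Nelfcd, a subunit of the negative elongation factor of transcription, had 29.7 and 18.2 rpm in the 3′UTR at e12.5 and was unlisted in both e15.5 lists. Against the listing minimum it was 40.3-fold higher at e12.5. That is not a bound if its e15.5 clusters lacked a site of a miRNA listed there. These genes did not overlap between the stages (all genes with e12.5 above: 10.9% in the 3′UTR and 9.28% in the CDS). The naming rule already asked for the same direction in first and second lists. Arhgap35, a GTPase-activating protein, had 6.48 and 39.9 rpm in the 3′UTR at e12.5 and was unlisted and at 7.69 rpm at e15.5. Cab39, a scaffold of the LKB1 kinase, and Pfas, an enzyme of purine synthesis, were 4.78-fold and 4.50-fold higher at e12.5 in the 3′UTR. Vbp1, a prefoldin subunit, had 20.7 and 4.05 rpm in the second lists in both the 3′UTR and the CDS, because 1 cluster was listed under both regions. Gnl3, a nucleolar protein of dividing cells, Irf2bpl, a nuclear factor, Tfip11, a splicing factor, and Skp1a, a subunit of SCF ubiquitin ligases, were 4.09-fold to 5.16-fold higher at e12.5 in the CDS, but in the second lists Gnl3, Tfip11 and Skp1a were 2.19-fold, 1.31-fold and 1.66-fold higher there.
Alad, 3′UTR, e12.5, site of miR-128-3p: aatgcgctgttagaACTGTGc
Arhgap35, 3′UTR, e12.5, site of miR-328-3p: aatctaagcactGGGCCAt
The Alad site, at chr4:62509167-62509187 on the minus strand, has a conservation score of 0.999, and the Arhgap35 site, at chr7:16496476-16496494 on the minus strand, 0.228. Both are 6mers for miRNAs of which neither reached 0.1% of the miRNA numbers at e12.5.

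Histone genes and ribosomal protein genes lay below the general shift in the 3′UTR. Of 33 histone genes compared in the 3′UTR, 1 was higher at e15.5 (all genes: 23.3%) and 9 at e12.5 (15.2%), with a median 0.87 below that of all genes and 1.36 below it in the second lists. In 10 of the 33 (all genes: 10.9%) both e12.5 lists lay above both e15.5 lists. The CDS differed from this. There 3 of 60 were higher at e15.5 (all genes: 23.0%) and 0 at e12.5 (10.2%), with a median 0.33 below that of all genes and 0.78 below it in the second lists but 0.24 above it with sums over clusters. In 17 of the 60 (all CDS genes: 11.6%) both e15.5 lists lay above, in 7 (9.28%) both e12.5 lists, and the share of the distinct CDS sites was 1.33% after 0.995%. Histone genes are near copies of each other, so the member a read belongs to is uncertain. Hist1h3g showed the contrast between the regions. Its 3′UTR had 140 and 28.1 rpm at e12.5 and was unlisted at e15.5. Its CDS had 185 and 260 rpm at e12.5 and 200 and 664 rpm at e15.5. Against the listing minimum the 3′UTR was 152-fold higher at e12.5. Its only 3′UTR site matched miR-652-5p, so being unlisted at e15.5 does not by itself give a low read number.
Hist1h3g, 3′UTR, e12.5, site of miR-652-5p: cgcggggagagggcttaAGGGTTt
Rps3, CDS, e12.5, site of miR-129-2-3p: ctacaaactccttggAGGGCTt
The Hist1h3g site, its only 3′UTR site, lies at chr13:23535839-23535862 on the plus strand and the Rps3 site at chr7:99481708-99481729 on the minus strand. The Rps3 site is 1 of 3 with the highest reads. At e12.5 miR-652-5p held 0.0019% and miR-129-2-3p 0.0002% of the miRNA numbers.
Of 15 ribosomal protein genes compared in the 3′UTR, 2 were higher at e15.5 (all genes: 23.3%) and 5 at e12.5 (15.2%), with a median 1.28 below that of all genes and 1.34 in the second lists. In the CDS 4 of 49 were higher at each stage (all genes: 23.0% at e15.5 and 10.2% at e12.5), with a median 0.57 below and 1.06 in the second lists. Both e15.5 lists lay above both e12.5 lists in 8 of the 49 (all genes: 11.6%), and the reverse held for 5 (9.28%). In the centred second lists 0 of the 49 compared there were higher at e15.5 (all genes: 8.83%) and 9 at e12.5 (7.88%). Rpl26, a protein of the large subunit, had 269 and 492 rpm at e12.5 and 195 and 478 rpm at e15.5 in the CDS. Rps3, a protein of the small subunit, had 32.4 and 76.5 rpm and then 38.6 and 10.6 rpm, so its call came from the second lists. In the first lists alone, where most genes were unlisted at e15.5 and the median of all genes was -2.31 in the 3′UTR, histone and ribosomal protein genes lay above the median.

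Cell cycle genes stayed near the general shift in the CDS and lay below it in the second lists of the 3′UTR. Of 41 compared in the CDS, 4 were higher at e15.5 (all genes: 23.0%) and 0 at e12.5 (10.2%), with a median 0.07 above that of all genes and 0.30 below it in the second lists. Both e15.5 lists lay above both e12.5 lists in 11 of the 41 (all genes: 11.6%), and the reverse held for 2 (9.28%). Mki67, the proliferation antigen, was among the 4, with 47.7 and 19.5 rpm at e12.5 and 117 and 109 rpm at e15.5, while Rrm1, the large subunit of ribonucleotide reductase, had 187 and 415 rpm and then 19.2 and 213 rpm, and Top2a, topoisomerase II alpha, 115 and 225 rpm and then 95 and 326 rpm. In the 3′UTR 6 of 36 were higher at e15.5 (all genes: 23.3%) and 3 at e12.5 (15.2%), with a median 0.12 below that of all genes and 0.76 below it in the second lists. Other settings turned these counts. In the centred second lists 1 of 33 was higher at e15.5 (all genes: 11.3%) and 6 at e12.5 (9.74%), and with sums over clusters 4 of 38 were higher at e15.5 (all genes: 15.1%) and 8 at e12.5 (22.4%). In the CDS the centred second lists gave 1 and 4 of 39 (8.83% and 7.88%), and sums over clusters gave 2 and 2 of 42 (14.4% and 17.3%). Both e12.5 lists lay above both e15.5 lists in 9 of the 36 (all genes: 10.9%), and the reverse held for 4 (8.81%). Of 14 imprinted growth genes in the CDS, 6 were higher at e15.5 (all genes: 23.0%) and 0 at e12.5 (10.2%). Their median lay 0.43 above that of all genes but 0.09 below it in the second lists. After centring, 2 and 0 of 14 were called there (8.83% and 7.88%). In the 3′UTR 1 of 10 was higher at e15.5 (all genes: 23.3%) and 0 at e12.5 (15.2%). The 3′UTR median lay 0.245 above that of all genes and 0.44 below it in the second lists. Igf2r, the receptor that clears IGF2, had 10.1 and 6.62 rpm at e12.5 and 79.9 and 34.9 rpm at e15.5, and Igf2 itself had 137 and 11.6 rpm in the 3′UTR and then 337 and 32.2 rpm. The median of cholesterol synthesis genes lay 0.21 above that of all genes in the 3′UTR, but 0.06 below it in the second lists, and 0.25 and 0.33 above it in the CDS. That of miRNA machinery genes lay 0.05 above in the 3′UTR (0.34 in the second lists) and 0.43 below in the CDS (1.21 in the second lists). That of zinc finger genes lay 0.19 below in the 3′UTR and 0.31 above in the CDS, with 0.08 and 0.04 above in the second lists. The let-7 targets of fetal tissue had 1 of 11 higher at e15.5 (all genes: 23.3%) and 1 at e12.5 (15.2%) in the 3′UTR. In the CDS 1 of 8 was higher at e15.5 (all genes: 23.0%) and 4 at e12.5 (10.2%), with a median 1.85 below that of all genes, but in the centred second lists 0 and 1 of 6 were (8.83% and 7.88%), with a median 0.69 below. With the lists joined, mesenchymal genes, collagens and laminins lay within 0.30 of the median in both regions, and in the second lists between 0.35 below and 0.47 above it. Iron genes lay 0.74 below it in the 3′UTR and 0.05 above in the CDS, and 0.71 and 0.19 below in the second lists.

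**Figure D3:**
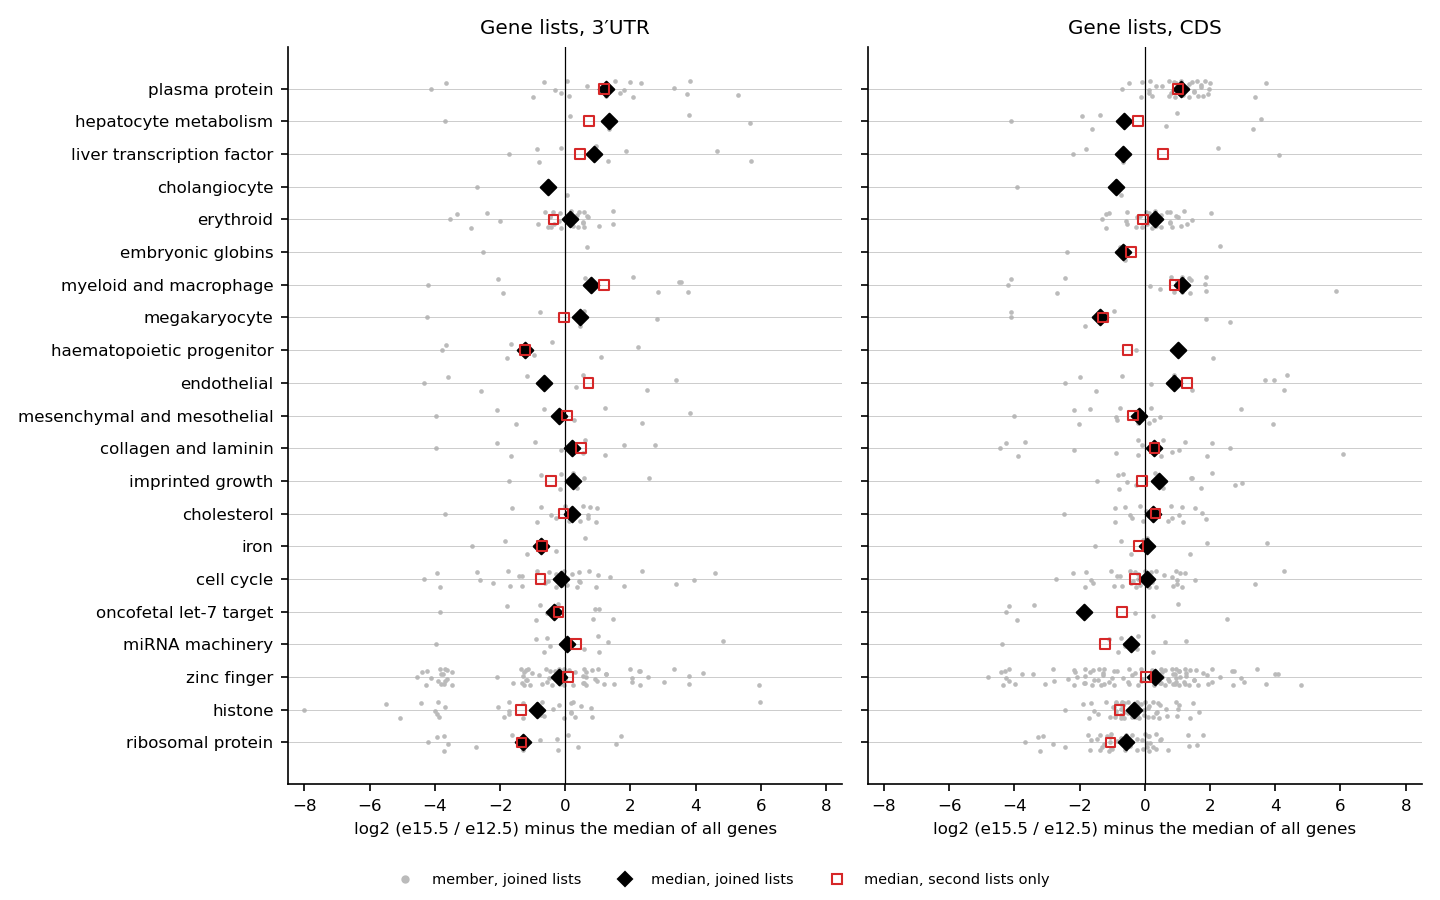
Log2 ratio of e15.5 over e12.5 minus the median of all genes, for the members of each gene list in the 3′UTR (left) and the CDS (right), with grey points for members, black diamonds for list medians with the lists joined and open red squares for the second lists (medians drawn for lists of at least 3 genes). Plasma protein genes lie to the right in both regions at 1.24 and 1.10, ribosomal protein and histone genes to the left, and erythroid genes near 0.

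The 3′UTR and the CDS of a gene did not change closely together. Of 4105 genes compared in both, 278 were higher at e15.5 in both regions and 90 higher at e12.5 in both, while 58 were higher at e15.5 in the 3′UTR and at e12.5 in the CDS, and 89 the reverse. Spearman's rho of the log2 ratios across these genes was 0.20, a description over genes that share libraries and, where a cluster spans the stop codon, reads.

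Of the miRNAs, 224 held at least 0.01% of the summed miRNA numbers at 1 of the stages. That number is carried in each entry name without an explanation, and it was taken as the read number of the miRNA. Of the 224, 19 (8.48%) had a share at least 2-fold larger at e15.5 and 31 (13.8%) at e12.5. Both e15.5 lists lay above both e12.5 lists for 50 (22.3%), and the reverse held for 44 (19.6%). miR-142a-3p, which is found in blood cells of all kinds, was the most abundant at both stages, with 32.2% in each e12.5 list and 21.6% and 42.2% in the e15.5 lists. The erythroid pair miR-144-3p and miR-451a came next at e12.5. miR-451a had 13.2% and 5.30% at e12.5 and 3.00% and 3.70% at e15.5, without overlap, whereas miR-144-3p had 12% and 24.3% and then 19.7% and 7.04%, so that its lists disagreed on the direction. miR-486a-5p and miR-486b-5p, also erythroid and not separable by seed, had joined log2 ratios of -0.31 and -0.32.

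The liver miRNAs were larger at e15.5 in every list. miR-122-5p, the main miRNA of hepatocytes, had 1.90% and 1.32% at e12.5 and 8.24% and 3.04% at e15.5, with a joined log2 ratio of 1.59. miR-192-5p and miR-194-5p, miRNAs of liver and gut, had 0.344% and 0.245%, then 1.34% and 0.595%, and 0.693% and 0.641%, then 1.22% and 1.83%. The let-7 family, which marks maturing tissue, had 2 of its 8 5p members called larger at e15.5 (all miRNAs: 8.48%), let-7b-5p and let-7c-5p, and 0 at e12.5 (13.8%). All 8 had log2 ratios above 0 with the lists joined, by log2 ratios of 0.22 to 1.68 (median 0.53, beside 0.17 over all 224 miRNAs). For 7 of the 8 (all miRNAs: 22.3%) both e15.5 lists lay above both e12.5 lists, let-7d-5p being the exception with -0.15 in the first lists. let-7b-5p had 0.0549% and 0.0472% at e12.5 and 0.302% and 0.108% at e15.5, and let-7c-5p 0.349% and 0.495% and then 2.08% and 0.644%. miR-30f and miR-181a-5p were also larger in both e15.5 lists, and miR-17-3p only in the second.

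The miRNAs with smaller shares at e15.5 differed more between lists. miR-652-3p had 0.247% and 0.356% at e12.5 and 0.0876% and 0.0998% at e15.5, and miR-673-5p had 0.218% and 0.423% and then 0.192% and 0.119%, both without overlap. miR-376b-3p did not overlap either, with a joined log2 ratio of -1.24. miR-744-5p, miR-674-5p, miR-540-3p and miR-324-5p had joined log2 ratios of -1.71 to -1.50, but in the first lists each was larger at e15.5. The chromosome 12 cluster, between chr12:109572004 and chr12:109743784 of GRCm38.p6 and expressed from the maternal chromosome, held 44 of the 224 miRNAs, a group chosen after the values were seen. Together they made up 7.19% of the e12.5 and 9.32% of the e15.5 miRNA numbers, their median log2 ratio was 0.07, and 1 was called higher at e15.5 (all miRNAs: 8.48%) and 8 at e12.5 (13.8%). The sum was led by miR-136-5p, with 3.67% and 2.96% at e12.5 and 4.12% and 4.67% at e15.5, and miR-127-3p, with 1.29% and 0.832% and then 2.64% and 1.53%. Arms of the same hairpin differed in some cases and not in others. miR-379-5p had a log2 ratio of 0.69 and miR-379-3p -1.14, and miR-411-5p had 0.88 and miR-411-3p -0.93, each with the stages apart in all lists. The arms of miR-136 had 0.54 (5p) and 0.91 (3p), those of miR-154 0.74 and 0.66, and those of miR-434 0.14 and 0.31. In the first lists both arms of miR-154 were smaller at e15.5 (-3.71 and -0.58), and the arms of miR-434 parted (0.28 and -0.72).

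**Figure D4:**
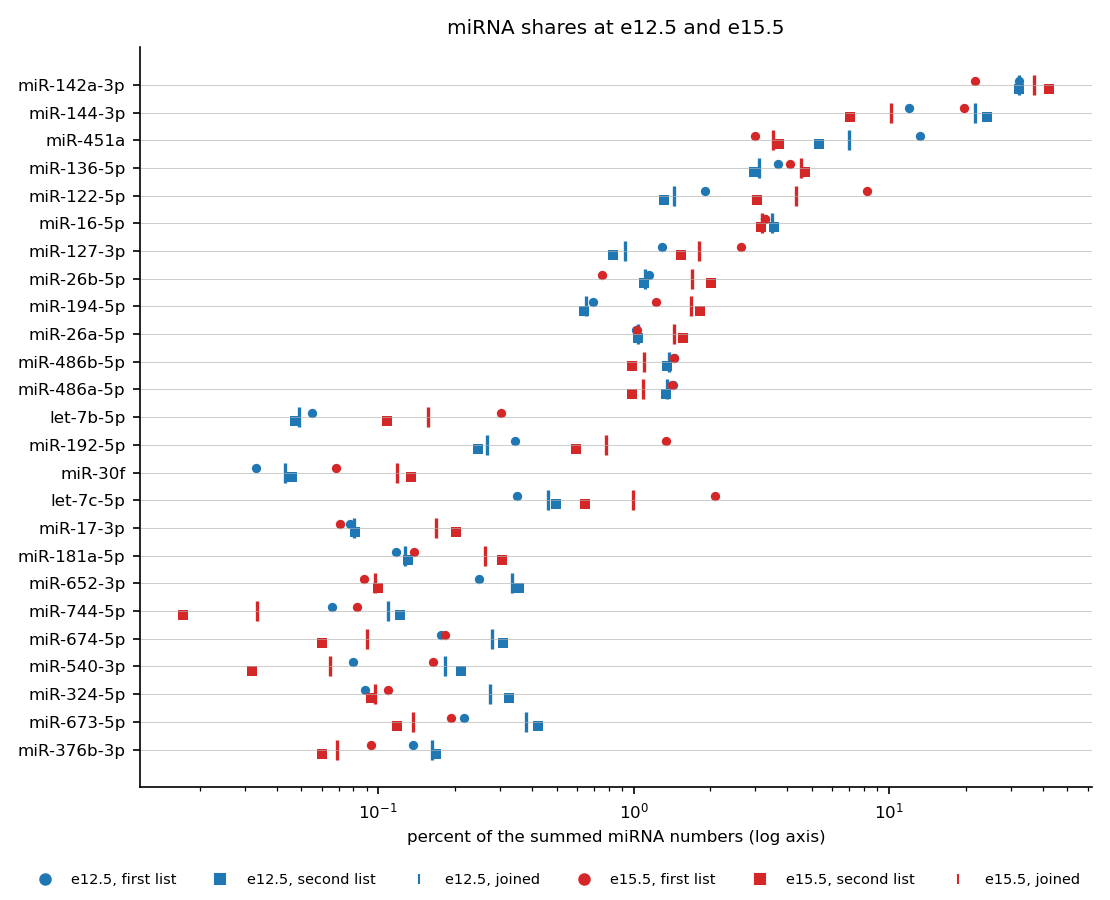
Share of the summed miRNA numbers (log axis) of the 12 most abundant miRNAs and those with the largest changes of at least 0.1%, blue for e12.5 and red for e15.5, circles for first lists, squares for second lists and bars for the lists joined. miR-122-5p, miR-194-5p, miR-192-5p and the let-7 miRNAs lie to the right in both e15.5 lists, and miR-144-3p is split between its lists.

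Sites were counted by seed family as the share of 3′UTR clusters that held a site, over 39453 clusters at e12.5 and 18220 at e15.5. Intervals are 95% and cover counting error only. Of 344 families with at least 50 clusters at both stages, 11 (3.2%) had an odds ratio of at least 1.5 towards e15.5 and 7 (2.03%) towards e12.5. The families miR-7075-3p and miR-669k-5p, with log2 odds ratios of 1.98 and 1.55, and miR-5125 and miR-5113, with -0.78 and -0.61, were not listed in all 4 lists, so their shares are not comparable. Among the 268 families in all lists, 9 were called towards e15.5 and 5 towards e12.5. At e12.5, 2.25% of the clusters held a miR-144-3p site (Wilson interval 2.11 to 2.4), and at e15.5 3.66% (3.40 to 3.94), with a log2 odds ratio of 0.72 (0.58 to 0.87), 0.67 in the second lists, 0.80 for sites of at least 7 bases and 0.56 in the CDS, and 0.13 when genes were counted in place of clusters, where the median over all families was -0.60. The seeds of miR-101a-3p and miR-101b-3p overlap with that of miR-144-3p by 6 bases, and their log2 odds ratios were 0.68 and 0.69 over partly the same clusters, and 0.08 for both when genes were counted, again beside that median. The largest log2 odds ratio among the families in all lists was that of miR-369-3p, 0.86 (0.37 to 1.35), on 73 and 61 clusters. miR-770-3p, miR-669d-5p, miR-328-3p and miR-874-3p had log2 odds ratios from -0.77 to -0.60.

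The site shares did not follow the miRNA shares. Over the 59 families of at least 0.1%, Spearman's rho between the log2 ratio of the miRNA share and the log2 odds ratio of its sites was 0.07, and 33 moved in the same direction, a description over families that share libraries and clusters. For miR-451a the site share was 0.73% (0.65 to 0.82) before and 1.11% (0.97 to 1.28) after, although the share of the miRNA itself was smaller. For miR-122-5p it was 1.01% (0.91 to 1.11) and 1.30% (1.14 to 1.47), in the direction of the miRNA. For miR-192-5p, whose own share went from 0.266% to 0.781%, the site share was 0.61% (0.54 to 0.69) and 0.57% (0.47 to 0.69), which is within counting error. That of let-7 was 0.79% (0.71 to 0.88) and 0.94% (0.81 to 1.10), also within counting error, and that of miR-142a-3p was 1.07% and 1.21%. The site shares did move with the base composition of the seed. Families with 1 G or C among the 7 seed bases had a median log2 odds ratio of 0.28, those with 4 had -0.11 and those with 6 had -0.31, and rho between the number of G and C and the log2 odds ratio was -0.56 over the 344 families, in the second lists as well. The seeds of miR-144-3p and miR-101a-3p hold 2 and 3. The listed target stretches in 3′UTRs moved alike, with a median GC content of 50% in both e12.5 lists and 47.8% and 47.4% in the e15.5 lists. In the CDS the medians were 52.6% and 52.4%, then 52.2% and 50%. The part of this difference in the site shares was not tested.

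**Figure D5:**
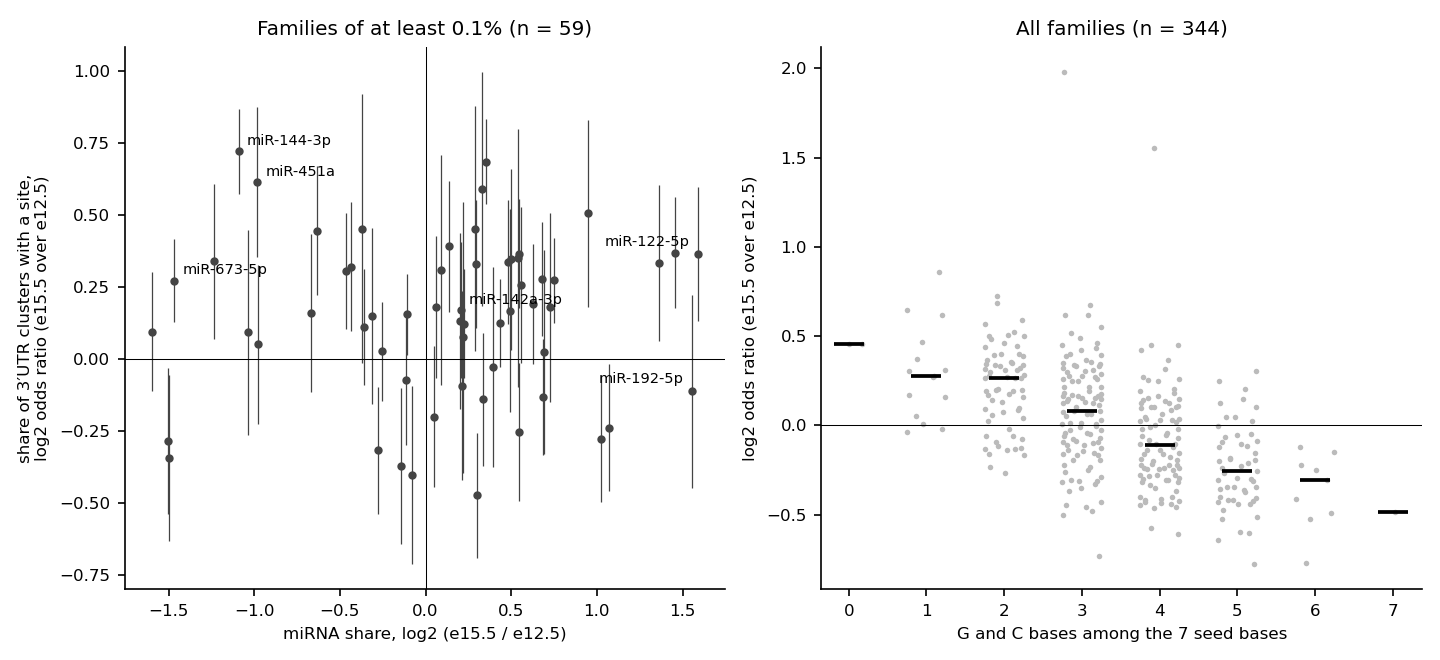
Left, log2 odds ratio of the share of 3′UTR clusters with a site (y axis, bars are 95% intervals for counting error) against the log2 ratio of the miRNA share (x axis) for the 59 families of at least 0.1%. Right, log2 odds ratio of all 344 families by the number of G and C bases in the seed, with bars at the medians, which go from 0.28 at 1 to -0.31 at 6.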

How the data were processed

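HITS-CLIP tables of 2 libraries, e12.5 and e15.5, were used. Per the labels and methods, the authors crosslinked livers at 254 nm, trimmed reads with the FASTX-Toolkit, mapped them with Bowtie to mm10 (the labels name mm9 and mm10) and to miRBase miRNAs, annotated clusters with UCSC and Ensembl genes and scanned them for seed matches. Versions of the aligner are not given in the sources used here. The deposited read numbers are a signal per cluster, and the deposited conservation values are a score from 0 to 1. All listed seed positions compared with the reference genome matched GRCm38.p6.

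The 2 stacked lists of each table were joined. For each gene and region the highest read number was scaled to the summed cluster reads (rpm). Pairs reaching 2 rpm were compared, and an unlisted pair was set to 5 reads. Its fold is a bound only where a site of a listed miRNA was present, since clusters without such a site are not listed. Calls were 4-fold for genes, 2-fold for miRNA shares of at least 0.01%, and an odds ratio of 1.5 for families of at least 50 clusters. Named genes were, per region, the 10 called genes with the largest ratio in each direction among those with at least 500 reads, listed alone and with the same direction in first and second lists, and the 3 members of each gene list with the most reads. Named miRNAs were the 12 with the largest shares and the 8 with the largest called changes each way at 0.1% or more, and named families the 6 with the largest odds ratios each way. Other members, the liver and let-7 miRNAs and the chromosome 12 miRNAs were named after their values were seen. The members and gene lists were chosen with earlier results of these data known. Intervals are Wilson or Woolf intervals at 95% and cover counting error only. No test was run, as each stage has 1 library. Python 3.11.15, pandas 2.3.3, numpy 2.4.6 and matplotlib 3.10.9 were used, and the steps were tested on simulated tables. The e18.5, postnatal and adult libraries were not used here. Alternatives covered each list alone, centring, sums over clusters, minima, genes listed alone and clusters over miRNA genes. Some genes chosen by these rules are not reported here.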

Additional observations from a re-analysis of the deposited data

How the results depend on the processing

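The larger read sum and larger miRNA set of e12.5, the unexplained lists and the single library per stage limit every count. Genes unlisted at a stage have at most a bound. Values are counts of genes higher at e15.5 and at e12.5 in the 3′UTR, then in the CDS, against 1256, 821, 1623 and 722 with the joined lists, and the cause of each difference was not tested unless stated. Centring on the genes listed at both stages left 655 and 749 higher at e15.5. A minimum of 10 rpm, which tests fewer genes, left 459 and 10 in the 3′UTR and 618 and 15 in the CDS. The first lists gave 2665 and 3244 higher at e12.5, the second lists 257 and 244, sums over clusters 1353 and 1388. The alternatives without clusters over miRNA genes and with centred second lists were chosen after seeing the data: the first gave 1136 CDS genes higher at e12.5, the second gave 545 and 469 in the 3′UTR and 583 higher at e15.5 in the CDS. Genes listed at e15.5 alone numbered 386 (3′UTR) and 553 (CDS) in the first lists, and those at e12.5 alone 3949 in the CDS.

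Of miRNAs, the first lists gave 52 higher at e15.5 and 51 at e12.5, and a minimum of 0.1% gave 9 and 8. Of families, 5 were higher at e15.5 in CDS clusters, 2 when genes were counted (176 at e12.5), 7 in the first lists (0 at e12.5) and 6 in the second. Medians of lists relative to all genes also moved. For plasma protein genes they were 3.03 (3′UTR) and 3.997 (CDS) in the first lists, 0.43 and 0.42 at 10 rpm, and 0.56 in the 3′UTR with no minimum, and for myeloid genes 0.44 in the CDS at 10 rpm. For ribosomal protein genes the first lists turned them to 0.88 and 1.65, 10 rpm gave -2.20 and -1.72, and the 3′UTR had -0.13 with no minimum and -0.61 without miRNA genes. Histone genes had 0.54 in the 3′UTR of the first lists. Of the log2 ratios that were called, some turned in the centred second lists, those of Prkaa1 (-0.18), Psap (-0.38), Strn3 (-0.49) and Hnf4a in the CDS (-0.059). In the first lists those of Rps3 (0.25), miR-17-3p (-0.14), miR-744-5p (0.33), miR-674-5p (0.049), miR-540-3p (1.04), miR-324-5p (0.31) and miR-144-3p (0.71) turned. Ratios under the threshold turned there as well, among them those of miR-142a-3p (-0.57), miR-26b-5p (-0.61) and Top2a in the CDS (-0.28). Beside the called ratios that turned, 463 values of single genes, miRNAs and families under an alternative stayed close and 161 moved. The genes named for the largest ratios had to share direction in first and second lists, so either list alone could not turn them. Other settings rescaled all genes alike or changed only the minimum, so the tally overstates how stable the values are. No paired analysis was possible because each stage has 1 library.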
